A study of Nothobranchius furzeri with 6 samples.

Results

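The nuclear-encoded genes of the mitochondrial respiratory chain were followed across the cell types of the killifish retina and across 3 ages. Entries of the gene table were taken when their gene name, ignoring case, began with NDUF, UQCR, ATP5, SDHA, SDHB, SDHC, SDHD, COX4, COX5, COX6, COX7 or COX8. This gave 77 of 24989 entries. By their names, 30 were subunits of complex I, 3 of complex II, 7 of complex III, 17 of complex IV and 10 of complex V, and 10 were assembly factors or other entries of like name. The 17 complex IV entries included 4 named NDUFA4, which was first placed in complex I and is now counted as a subunit of complex IV. Of the 77 entries, 53 matched a named symbol in the RefSeq table of the species. The names differed for some: the entry named COX7B2 was cox7b in RefSeq, COX7A2 was cox7a1, and 1 of the NDUFA4 entries (XLOC_020965) was ndufa4l2a. The COX7A3 entry XLOC_018254 was cox7a2l in RefSeq. That name would have been sorted with the assembly factors and others, but the entry was counted in complex IV. A further 17 entries carried a name with one of the listed starts only in a second name column or in RefSeq, among them sdhb, cox6c, ndufb3 and atp5e. They fell outside the rule and are given as counts near the end.

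The respiratory chain sits in the inner membrane of mitochondria. Complex I takes electrons from NADH and complex II takes them from succinate, which also makes it an enzyme of the citric acid cycle. Complex III passes the electrons to cytochrome c, and complex IV (cytochrome c oxidase) passes them on to oxygen. Complexes I, III and IV pump protons, and complex V (ATP synthase) lets the protons back and makes ATP. Retinal neurons, the photoreceptors above all, are known for a high demand for ATP. Subunits encoded by the mitochondrial genome carry other names and were not members.

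The cells came from neural retinas of untreated, wildtype female African turquoise killifish (Nothobranchius furzeri), a short-lived fish used as a model of ageing, of the inbred strain GRZ-AD. Old fish were 18 weeks of age, middle-aged fish 12 weeks and young fish 6 weeks. There were 2 droplet libraries per age, and a library pooled the retinas of 2 fish at 18 and 12 weeks and of 3 fish at 6 weeks. The pigment epithelium had been removed, and the values are UMI counts, in which every captured transcript is counted once near its 3' end.

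The 6 libraries held 37243 cells, with 4804 to 7235 cells and 17393089 to 24317894 UMIs per library. The median cell of a library held 2082 to 2574.5 UMIs. Cell types were those of the authors, and 10 of their 12 types had at least 10 cells in every library. These 10 types were tested, with 182962 to 7727127 UMIs per type and library. For each of the 10 types the summed level of its own markers was higher in that type than in any other, for example 120400 CPM of rod markers in rods, against at most 5222 CPM elsewhere. Pairs of libraries shared 6 to 18 cell barcodes, at most 0.272% of the smaller library. Fewer cells of a type and less RNA per cell cannot be told apart in the sum over all cells, so the results rest on sums within a type.

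Cones, horizontal cells and bipolar cells gave the largest part of their transcripts to the respiratory chain, and Müller glia (which span the retina), immune cells and rods the smallest. Cones spent 2.41 ± 0.27% of their UMIs on the 77 entries and horizontal cells 2.41 ± 0.25% (mean ± SD over 6 libraries). Bipolar cells spent 2.23 ± 0.25%, oligodendrocytes 1.67 ± 0.07%, amacrine cells 1.55 ± 0.23% and ganglion cells 1.51 ± 0.26%. Differentiating cells spent 1.38 ± 0.15%, rods 1.16 ± 0.17%, immune cells 1.10 ± 0.09% and Müller glia 1.03 ± 0.07%. The 2 kinds of photoreceptor thus lay at different ends of this order, cones above rods. Horizontal cells were above bipolar cells in 6 of 6 libraries, bipolar cells above oligodendrocytes in 6 and differentiating cells above rods in 6. Other neighbours did not keep their order: cones were above horizontal cells in 2 of 6 libraries, and oligodendrocytes above amacrine cells and amacrine cells above ganglion cells in 4. Ganglion cells were above differentiating cells, rods above immune cells and immune cells above Müller glia in 5 of 6 libraries each. The order changed with the processing. With cells thinned to 1000 UMIs, cones (2.055%) fell below horizontal cells (2.39%) and bipolar cells (2.26%), and rods (0.994%) below immune cells (1.18%). Without ribosomal protein, haemoglobin and rRNA entries, rods had 1.24% and immune cells 1.65%. Differentiating cells (2.08%) then passed oligodendrocytes (1.88%), amacrine cells (1.71%) and ganglion cells (1.65%). These levels are a description, since the authors had defined the types by clustering the same counts. In the sum of all cells, complex I entries held 0.546% of the UMIs, complex V 0.540%, complex IV 0.534%, complex III 0.164%, complex II 0.030% and the assembly factors 0.045%.

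**Figure D1:**
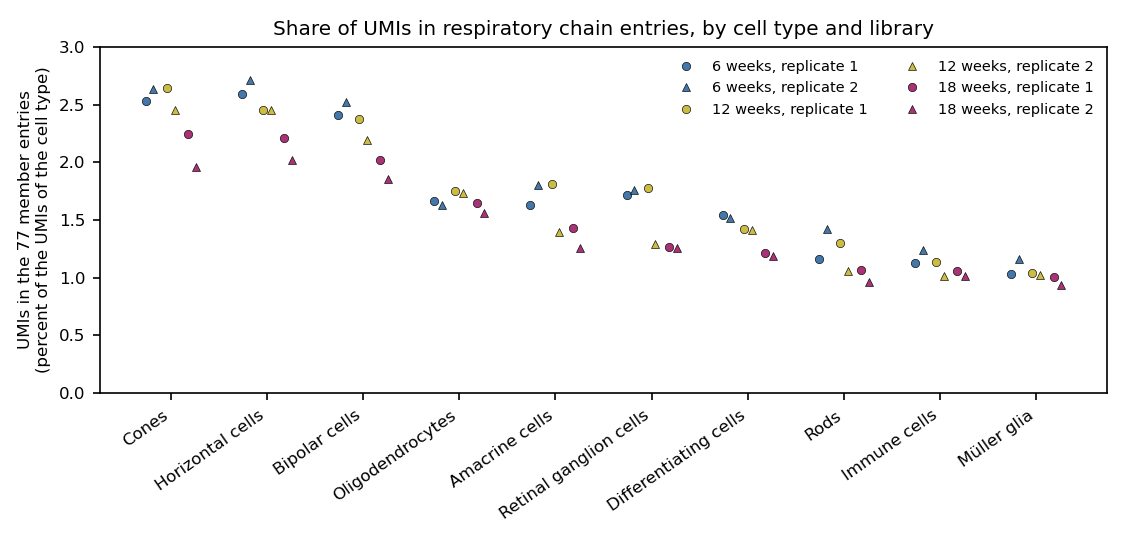
Percent of the UMIs of a cell type that fell on the 77 respiratory chain entries (vertical axis), for 10 cell types (horizontal axis), with 1 point per library, coloured by age. The 18-week points of cones lie at 2.25% and 1.96% and the 6-week points at 2.53% and 2.64%.

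The entries differed in level between types by degree, and few were particular to 1 type. Levels are given as CPM, the count of an entry scaled to the UMI total of the type in a library, with trimmed means of M-values (TMM). Of the 77 entries, 64 reached a mean of 50 CPM in at least 1 type. In 62 of these 64 the highest type was less than 2 times the second, and the median ratio of the highest to the lowest type was 3.3. Cones were the highest type for 25 entries, horizontal cells for 23, bipolar cells for 6, oligodendrocytes for 5 and ganglion cells for 3. Immune cells were the lowest for 22, Müller glia for 20 and rods for 12. Transcripts are tagged at 1 end, so CPM was not divided by length. On this scale the 5 entries with the highest mean over all cells were ATP5G3A (1326 ± 163 CPM, SD over 6 libraries), COX8A (1083 ± 192 CPM), COX6A1 (828 ± 111 CPM), ATP5B (683 ± 57 CPM) and NDUFA4 (1 OF 2) (665 ± 49 CPM). ATP5G3A codes for subunit c, which forms the rotating ring of ATP synthase, and ATP5B for the catalytic beta subunit, while COX8A and COX6A1 are small structural subunits of complex IV.

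Complex IV held the entries with the sharpest cell type patterns. COX4I2 is one of 2 forms of subunit 4, on which complex IV is regulated by ATP. It reached 799 ± 162 CPM in cones, 198 ± 25 CPM in rods and 166 ± 31 CPM in Müller glia, against 14.5 ± 2.9 CPM in horizontal cells, the lowest type (SD over 6 libraries). The other form, COX4I1, was present in every type, with 1024 ± 169 CPM in cones and 283 ± 29 CPM in Müller glia as the highest and lowest means. As a ratio of CPM, COX4I2 stood nearest to COX4I1 in cones. COX6B1, a subunit on the outer face of complex IV, was the other entry above a ratio of 2: it reached 111 ± 25 CPM in ganglion cells, 38.8 ± 6.8 CPM in amacrine cells and 14.3 ± 1.7 CPM in bipolar cells, and was below 10 CPM in the other 7 types. COX5B2, which the table names as a form of subunit 5B, was highest in oligodendrocytes (358 ± 31 CPM) and Müller glia (237 ± 26 CPM), while neurons held 79.0 to 194 CPM and immune cells 39.3 ± 12.8 CPM.

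The 4 NDUFA4 entries divided the retina between them. NDUFA4 (1 OF 2) (XLOC_010795) was the broadest, with 1202 ± 122 CPM in horizontal cells, 952 ± 107 CPM in bipolar cells and 295 to 639 CPM in 7 further types, but 55.6 ± 29.2 CPM in cones. A second entry (XLOC_016635) was found mainly in horizontal cells (788.5 ± 53.0 CPM), rods (639 ± 93 CPM) and bipolar cells (248 ± 22 CPM), and stood below 50 CPM in the other 7. The third (NDUFA4, XLOC_018357) marked inner neurons, with 681 ± 101 CPM in ganglion cells, 642 ± 95 CPM in amacrine cells, 572 ± 39 CPM in bipolar cells and 308 ± 29 CPM in horizontal cells, against 9.7 ± 3.5 CPM in cones. Cones were thus the lowest type for each of these 3 entries. Cones and Müller glia instead held the fourth, XLOC_020965, the entry that RefSeq names ndufa4l2a. It reached 167 ± 24 CPM in Müller glia and 135 ± 40 CPM in cones, and was below 10 CPM in every other type. NDUFA4L2 is known in mammals as a relative of NDUFA4 that hypoxia induces. Copies of like sequence can share reads, so the split between the NDUFA4 entries is less certain than their sum.

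**Figure D2:**
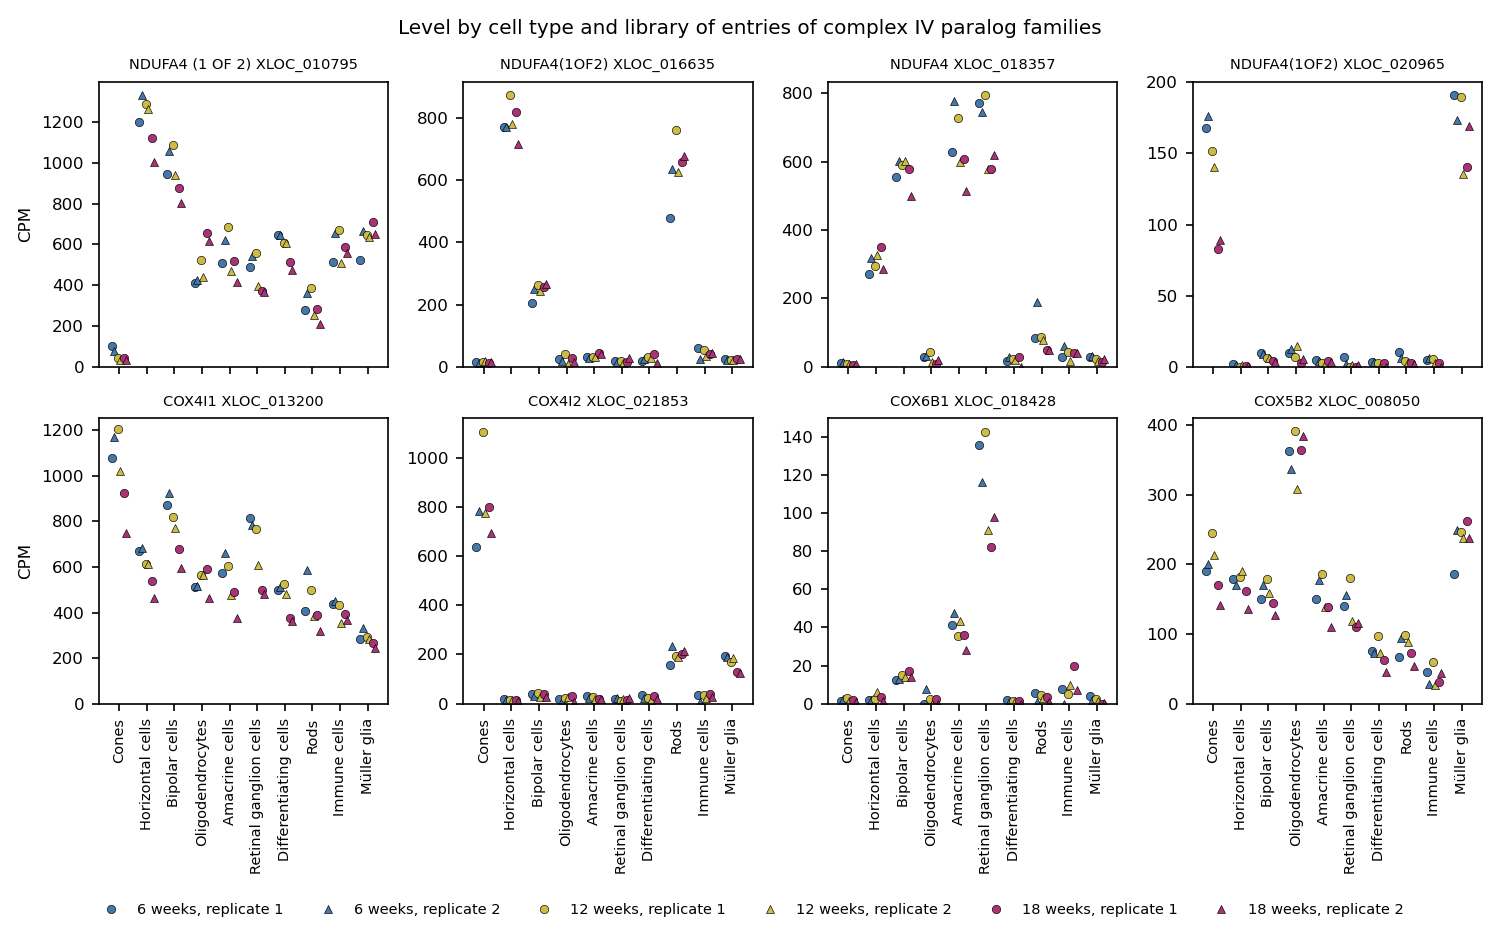
Level (CPM, vertical axis) by cell type and library of the 4 NDUFA4 entries, COX4I1, COX4I2, COX6B1 and COX5B2, each panel on its own scale, with points coloured by age and shaped by replicate. COX4I2 reaches 799 CPM on average in cones, where the first 3 NDUFA4 panels have their lowest points.

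Some further patterns by type were weaker. ATP5G3B, a second form of subunit c, was highest in cones (767 ± 145 CPM) and next in horizontal cells (425 ± 65 CPM), a ratio of 1.8, while its partner ATP5G3A was nearly level in cones (1741 ± 225 CPM), differentiating cells (1652 ± 113 CPM) and bipolar cells (1606 ± 200 CPM). UQCRC2A, a form of core protein 2 of complex III, had 50.6 ± 9.8 CPM in cones and 28.1 ± 3.3 CPM in amacrine cells. NDUFA11, a membrane subunit of complex I, had 329 ± 67 CPM in horizontal cells and 201 ± 46 CPM in bipolar cells, and NDUFS8, an iron-sulfur subunit, had 255 ± 39 CPM in cones and 158 ± 18 CPM in bipolar cells. COX7A2, which RefSeq names cox7a1, was low but almost confined to 1 of the 10 types, with 29.8 ± 10.7 CPM in immune cells and 2.2 ± 2.9 CPM in cones, the next type. Of the 2 COX7A3 entries, XLOC_018254 had 253 ± 34 CPM in horizontal cells, 184 ± 16 CPM in bipolar cells and, at the lowest, 62.8 CPM in oligodendrocytes. The other, XLOC_018255, had 4.8 ± 1.8 CPM in cones, its highest type. Neither was called at 18 against 6 weeks in any type. COX6A2 gave 24 UMIs in all 37243 cells and was the only member tested nowhere. In the 3 complex II entries the ratio of the highest to the lowest type was 2.3 to 2.7. SDHA, the subunit that oxidizes succinate, had means of 55.2 to 147 CPM, and the membrane anchors SDHC and SDHD had 42.4 to 112 CPM and 81.4 to 186 CPM.

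Old and young retinas were compared first. The share of UMIs on the 77 entries was lower at 18 than at 6 weeks in 9 of the 10 types, with both 18-week libraries below both 6-week libraries. In the sum of all cells it was 1.62 ± 0.07% at 18 weeks and 2.05 ± 0.04% at 6 weeks (SD, n = 2), a ratio of 0.793. The ratio was 0.726 in ganglion cells, 0.780 in amacrine cells, 0.785 in differentiating cells, 0.786 in bipolar cells, 0.786 in rods, 0.797 in horizontal cells and 0.814 in cones. It was nearer to 1 in immune cells (0.877) and Müller glia (0.883). In oligodendrocytes, the tenth type, the libraries overlapped, with 1.65% and 1.56% at 18 weeks and 1.66% and 1.63% at 6 weeks. No test was made on these shares.

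Each entry was then tested within each type. Of the 770 pairs of an entry and a type, 702 passed the filter on low counts, and 64 of these were called at an edgeR adjusted p under 0.05, 62 lower and 2 higher at 18 than at 6 weeks. Over all genes in the 10 types 1.57% of the pairs were called lower and 1.30% higher. Among genes at 50 CPM or more, 2.70% were called lower. The calls lower at 18 weeks made up 8.83% of the pairs of members, and 560 of the 702 log2 fold changes were below 0. The calls sat mainly in bipolar and horizontal cells, and 36 entries were lower in at least 1 type and 22 in at least 2. Of the 61 entries tested in all 10 types, 23 had a log2 fold change below 0 in all 10 (26 without TMM, 24 with DESeq2). These counts over types were not made for all genes, and the types came from the same 6 libraries. Without the second 18-week library 6 pairs were called, without the second 6-week library 16, and without the first 18-week library 31. Over all genes the median log2 fold change lay between -0.02 and 0.01 in each type.

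**Figure D3:**
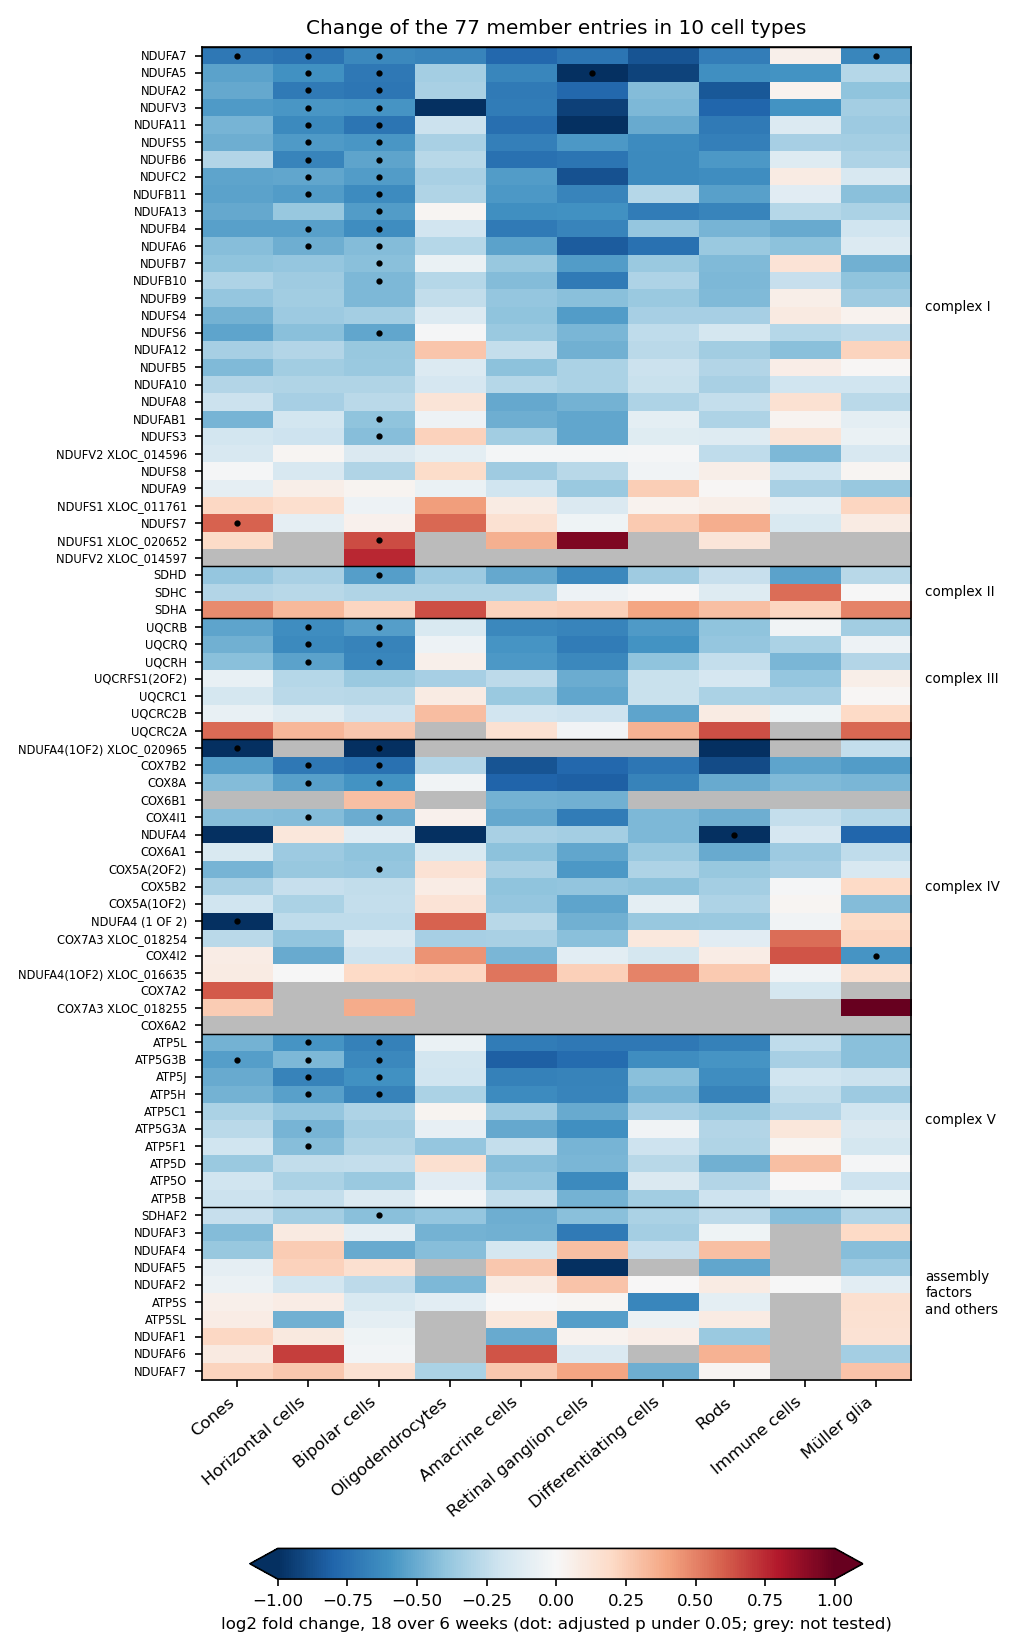
Log2 fold change at 18 over 6 weeks (colour) of each of the 77 entries (one axis, grouped by complex) in each of the 10 cell types (other axis), with a dot where the edgeR adjusted p was under 0.05 and grey where an entry was not tested. Bipolar cells hold 32 of the 64 dots and horizontal cells 23.

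In the sum of all cells 1 of 76 tested entries was called, NDUFA7, an accessory subunit of complex I. Its level was 173 and 189 CPM at 6 weeks, 172 and 149 CPM at 12 weeks, and 119 and 112 CPM at 18 weeks. Both old libraries were the lowest of the 6. NDUFA7 fell, with a log2 fold change of -0.65 ± 0.13 (SE) and an edgeR adjusted p of 0.0444 at 18 against 6 weeks. Of all genes tested in this sum, 1.72% were called lower, and 1 of 76 entries was near that share. Of the 76 entries, 64 had a log2 fold change below 0, and their median was -0.29, beside 0.01 for all genes. An unadjusted p under 0.05 was found for 35 of 76, beside 23.6% of all genes. DESeq2 called 23 of the 76 entries, 22 lower and 1 higher, beside 1259 of all 18964 genes. The edgeR call of NDUFA7 was lost without any one 6- or 18-week library, in fits that called fewer genes of any kind. In 54 of 76 entries both old libraries lay below both young ones, as did 26.2% of all genes.

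Bipolar cells, the interneurons that carry the photoreceptor signal inward, had the most calls. Of 75 entries tested, 31 fell and 1 rose at 18 against 6 weeks, where 3.61% of all genes were called lower and 2.73% higher. Among genes at 50 CPM or more, 6.72% were called lower. The median log2 fold change was -0.37 (all genes 0.00). Complex I led by count, with 17 of 30 entries lower, among them NDUFA11 (-0.73 ± 0.11), NDUFA2 (-0.72 ± 0.10) and NDUFB4 (-0.62 ± 0.11). Complex V had 4 of 10 lower, complex III 3 of 7, complex IV 5 of 15 and complex II 1 of 3, which was SDHD (-0.55 ± 0.12). Of the 10 assembly factors and others 1 fell, SDHAF2 (-0.42 ± 0.10), which helps attach flavin to SDHA. Fewer entries were called without any one of the 6- and 18-week libraries, in fits that called fewer genes of any kind. The median log2 fold change of the entries then lay between -0.44 and -0.27. Some cell type markers moved in these libraries too, in either direction. The 4 markers of bipolar cells themselves summed to 8584 and 8596 CPM at 18 weeks and 10140 and 10350 CPM at 6 weeks, and the 8 amacrine cell markers, all present in bipolar cells, to 42.5 and 40.4 CPM at 18 weeks and 74.3 and 70.5 CPM at 6 weeks. Horizontal and differentiating cell markers were also lower. Immune cell markers were higher, with 58.6 and 25.6 CPM at 18 weeks and 13.5 and 17.1 CPM at 6 weeks. Those of rods, cones, Müller glia, ganglion cells and pigment epithelium overlapped between these ages. Their part in the result was not tested.

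COX7B2, a small subunit of complex IV that RefSeq names cox7b, had the clearest fall in bipolar cells. It stood at 851 and 934 CPM at 6 weeks, 821 and 736 CPM at 12 weeks, and 532 and 531 CPM at 18 weeks. The ages did not overlap, and the largest step came after 12 weeks. The log2 fold change at 18 against 6 weeks was -0.75 ± 0.11 (edgeR adjusted p = 0.00253). It was the one named result whose call held under all 14 other settings tried. NDUFA5, a subunit of the arm of complex I that reaches into the matrix, had 430 and 491 CPM at 6 weeks, 434 and 384 CPM at 12 weeks, and 295 and 267 CPM at 18 weeks. Its log2 fold change was -0.71 ± 0.12 (edgeR adjusted p = 0.00416), and again the old libraries lay below the other 4. UQCRQ, a small subunit of complex III, had 349 and 377 CPM at 6 weeks, 332 and 303 CPM at 12 weeks, and 230 and 227 CPM at 18 weeks. It fell by 0.67 ± 0.11 on the log2 scale (edgeR adjusted p = 0.00349). The largest fitted fall in bipolar cells was that of a scarce entry, NDUFA4(1OF2) XLOC_020965, with 9.6 and 8.8 CPM at 6 weeks, 6.6 and 5.9 CPM at 12 weeks, and 4.4 and 3.3 CPM at 18 weeks. The log2 fold change was -1.29 ± 0.25 (edgeR adjusted p = 0.0125). This call was lost without either 6-week library, without the second 18-week library and with cells thinned to 1000 UMIs, where the log2 fold change was -0.82 (edgeR adjusted p up to 0.207).

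Horizontal cells, the lateral interneurons of the outer retina, showed a like pattern. Of 70 entries tested 23 fell and none rose, beside 2.68% of all genes called lower and 1.67% higher. Among genes at 50 CPM or more, 5.80% were called lower. At an unadjusted p under 0.05 there were 47 entries, beside 18.8% of all genes. The median was -0.35 (all genes 0.00). Complex V had 6 of 10 lower, with ATP5J (-0.67 ± 0.11) and ATP5L (-0.59 ± 0.11) furthest down, complex I 11 of 28, complex III 3 of 7 and complex IV 3 of 12. None of 3 complex II entries and none of 10 assembly factors and others was called, and the median of the last group was 0.10. Of the 23 entries called here, 21 were called lower in bipolar cells too, from cells of the same 6 libraries. The same overlap was not counted over all genes, so it is not shown to be particular to these entries. NDUFA7 fell most, with 279 and 298 CPM at 6 weeks, 262 and 248 CPM at 12 weeks, and 186 and 161 CPM at 18 weeks. Its log2 fold change was -0.74 ± 0.12 (edgeR adjusted p = 0.00289). COX7B2 had 708 and 822 CPM at 6 weeks, 667 and 660.5 CPM at 12 weeks, and 466 and 469 CPM at 18 weeks, and fell by 0.71 ± 0.11 on the log2 scale (edgeR adjusted p = 0.00211). In both entries the 18-week values lay well below all others. Few or none of the entries were called without either 18-week library, and fewer without either 6-week library. These fits called fewer genes of any kind, and the median of the entries lay between -0.44 and -0.26. With cells thinned to 1000 UMIs 8 entries were called, beside 107 of all 6123 genes. Some transcripts of other cells were lower too: the 4 bipolar cell markers, all present in horizontal cells, summed to 77.3 and 45.4 CPM at 18 weeks and 212 and 125 CPM at 6 weeks, and the 6 rod markers to 1670 and 1235 CPM at 18 weeks and 2170 and 2029 CPM at 6 weeks. Amacrine cell and oligodendrocyte markers were also lower. Those of Müller glia, ganglion cells, cones, immune cells, differentiating cells and pigment epithelium overlapped between these ages. The markers of horizontal cells themselves were higher, with 671 and 706.5 CPM at 18 weeks and 604 and 618 CPM at 6 weeks. Their part in the result was not tested.

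**Figure D4:**
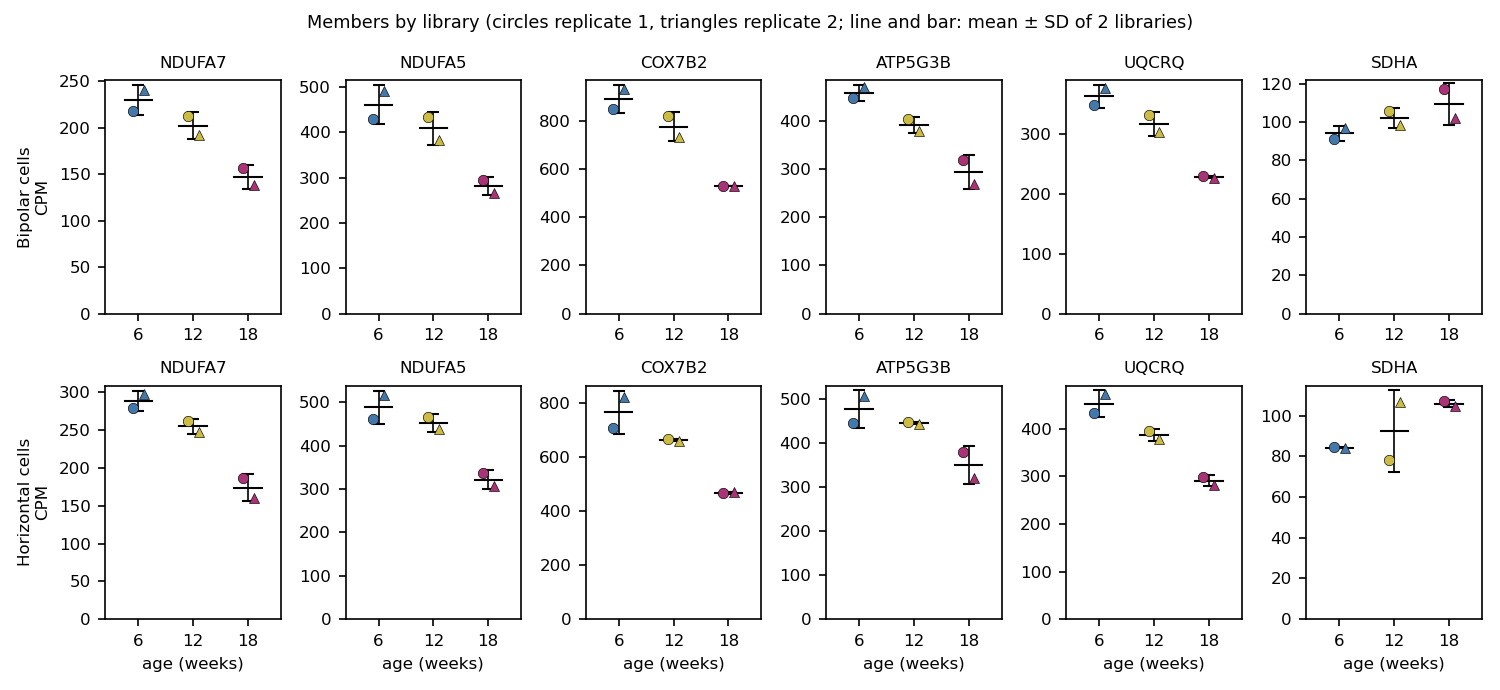
Level (CPM, vertical axis) at 6, 12 and 18 weeks (horizontal axis) of NDUFA7, NDUFA5, COX7B2, ATP5G3B, UQCRQ and SDHA in bipolar cells (upper panels) and horizontal cells (lower panels), with 1 point per library and the mean ± SD of 2 libraries. COX7B2 in bipolar cells is at 532 and 531 CPM at 18 weeks, below the other 4 libraries, and SDHA is the one panel in which the old libraries are not low.

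A few entries were called lower in 3 or more types. NDUFA7 was lower in 4: beside horizontal cells, in bipolar cells (-0.64 ± 0.11, edgeR adjusted p = 0.0063), cones (-0.71 ± 0.15, edgeR adjusted p = 0.0107) and Müller glia (-0.65 ± 0.17, edgeR adjusted p = 0.0364). Its means in cones were 102 ± 7 CPM at 18 weeks and 167 ± 10 CPM at 6 weeks (SD, n = 2), and the Müller glia libraries held 45.8 and 49.8 CPM at 18 weeks and 74.6 and 75.5 CPM at 6 weeks. The NDUFA7 call in Müller glia was lost without any one of the 6- and 18-week libraries, with thinned cells and with DESeq2 (adjusted p up to 0.24 over these settings of edgeR and DESeq2). In cones it was lost without the second 6-week library, without either 18-week library and with thinned cells (edgeR adjusted p up to 0.16). NDUFA5 was lower in bipolar cells, horizontal cells (-0.61 ± 0.11, edgeR adjusted p = 0.00693) and ganglion cells. In ganglion cells, whose axons form the optic nerve, NDUFA5 stood at 270.4 and 282 CPM at 6 weeks, 217.5 and 172 CPM at 12 weeks, and 139 and 120.5 CPM at 18 weeks. It fell by 1.09 ± 0.20 on the log2 scale (edgeR adjusted p = 0.0473) and was the single member called in that type, where 0.123% of all genes were called lower. The call was kept under 6 of 14 other settings. It was lost without any one of the 6- and 18-week libraries, without TMM and with the replicate number as a block. It was also lost with only the 2 ages compared and with thinned cells, and the highest edgeR adjusted p was 0.546. ATP5G3B, the form of subunit c that was highest in cones, was lower in bipolar cells (-0.64 ± 0.11, edgeR adjusted p = 0.00677), horizontal cells (-0.45 ± 0.12, edgeR adjusted p = 0.0457) and cones (-0.55 ± 0.15, edgeR adjusted p = 0.0457). In cones it had 848.5 and 894 CPM at 6 weeks, 883 and 787 CPM at 12 weeks, and 655 and 532 CPM at 18 weeks, and the 12-week libraries lay within or near the young ones. The ATP5G3B call in cones was lost under 6 of 14 other settings, among them the absence of any one 6- or 18-week library (edgeR adjusted p up to 0.511), and that in horizontal cells also under 6 of 14 (edgeR adjusted p up to 0.379).

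Cones had 4 of 74 entries lower and 1 higher, beside 1.85% of all genes called lower and 2.34% called higher. The median of the entries was -0.32 (all genes 0.00), close to that of horizontal cells, and 39 had an unadjusted p under 0.05, beside 17.7% of all genes. Fewer entries were called without any one of the 6- and 18-week libraries and more without either 12-week library. The calls over all genes changed in the same direction, and the median of the entries lay between -0.41 and -0.24. With cells thinned to 1000 UMIs no entry was called, beside 82 of all 5766 genes. The calls of greatest size were those of 2 NDUFA4 entries. NDUFA4(1OF2) XLOC_020965, the entry that cones share with Müller glia, had 168 and 176 CPM at 6 weeks, 151.5 and 140.2 CPM at 12 weeks, and 83.0 and 89.2 CPM at 18 weeks. It fell by 1.00 ± 0.15 on the log2 scale (edgeR adjusted p = 0.000562), with both old libraries about level with each other. In Müller glia the same entry had 141 and 169 CPM at 18 weeks and 191 and 174 CPM at 6 weeks and was not called. NDUFA4 (1 OF 2) XLOC_010795, which cones hold at a low level, had 104 and 79.5 CPM at 6 weeks, 42.4 and 35.5 CPM at 12 weeks, and 40.9 and 31.6 CPM at 18 weeks. Its log2 fold change was -1.32 ± 0.19 (edgeR adjusted p = 0.000338), and here the step lay before 12 weeks. Its UMIs were spread unevenly, since the top 5% of cones held 58.0% of the 964 UMIs. The 4 bipolar markers in cones summed to 64.7 and 46.1 CPM at 18 weeks and 73.2 and 39.1 CPM at 6 weeks. The 3 markers of differentiating cells were lower, with 6.4 and 9.1 CPM at 18 weeks and 15.2 and 9.9 CPM at 6 weeks. The 4 ganglion cell markers were higher, with 39.6 and 53.4 CPM at 18 weeks and 36.0 and 23.7 CPM at 6 weeks. All of these markers were above 0. Those of horizontal, amacrine and immune cells, rods, Müller glia, oligodendrocytes and pigment epithelium overlapped between these ages. Cone and bipolar markers overlapped too. The part of the markers in the result was not tested.

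In the remaining types few or no entries were called. In Müller glia COX4I2 fell beside NDUFA7, with 193 and 190.3 CPM at 6 weeks, 170 and 187 CPM at 12 weeks, and 128 and 126 CPM at 18 weeks (log2 fold change -0.59 ± 0.15, edgeR adjusted p = 0.0305). The 2 calls in Müller glia were 2 of 72 entries, a share near the 2.55% of all genes called lower there. Neither was called without any one of the 6- and 18-week libraries or with DESeq2. COX4I2 in cones, its main type, had 798 and 695 CPM at 18 weeks and 636 and 783.5 CPM at 6 weeks, which overlap. In rods 1 of 72 entries fell, a share near the 1.58% of all genes called lower there. It was NDUFA4 XLOC_018357, with 83.0 and 190 CPM at 6 weeks, 88.5 and 78.2 CPM at 12 weeks, and 49.8 and 50.3 CPM at 18 weeks (-1.46 ± 0.29, edgeR adjusted p = 0.0109). One young library stood far above the other 5, and the call was lost without it and without either 18-week library (edgeR adjusted p up to 0.201). This entry is mainly one of amacrine, ganglion and bipolar cells. In rods the 8 amacrine cell markers, all present there, summed to 38.2 and 37.8 CPM at 18 weeks. At 6 weeks they summed to 107 and 70.5 CPM, and unlike the entry they were higher in the first library. The 4 bipolar cell markers had 85.9 and 72.9 CPM at 18 weeks and 146 and 109 CPM at 6 weeks. Ganglion cell markers overlapped, with 92.1 and 57.6 CPM at 18 weeks and 59.5 and 39.9 CPM at 6 weeks. Their part in the result was not tested.

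The 4 types without a call differed in how many entries had an unadjusted p under 0.05. Amacrine cells had no call among 72 entries (0.144% of all genes were called in either direction), 26 at an unadjusted p under 0.05 (10.7% of all genes) and a median of -0.40. Differentiating cells had none among 68 (0.894% of all genes), 22 unadjusted (9.68% of all genes) and a median of -0.33. Immune cells had none among 62 (0.697% of all genes), 2 unadjusted (10.1% of all genes) and a median of -0.16, and oligodendrocytes none among 65 (1.10% of all genes), 5 unadjusted (12.6% of all genes) and a median of -0.13. In immune cells and oligodendrocytes the unadjusted count of entries was thus below the share of all genes. Ganglion cells, with 1 call, had the lowest median of the 10 types, -0.52, and 41 of 72 entries at an unadjusted p under 0.05 (9.60% of all genes). Both old libraries lay below both young ones for 57 of 72 entries in ganglion cells, where 20.3% of all genes did so, and for 52 of 72 in amacrine cells (21.2% of all genes). In oligodendrocytes this held for 17 of 65 entries (21.4% of all genes) and in immune cells for 19 of 62 (18.6%).

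The entries of complex V pointed the same way in most types. All 10 had a log2 fold change below 0 in 8 of the 10 types, oligodendrocytes and immune cells being the exceptions. Signs were not counted in this way for all genes, and the types came from the same 6 libraries. Over all genes 1.57% of pairs were called lower, or 2.70% among genes at 50 CPM or more. Of the 100 pairs of complex V with a type 11 were lower, as were 31 of 286 of complex I, 12 of 132 of complex IV, 6 of 68 of complex III and 1 of 30 of complex II. The assembly factors and others had 1 of 86 pairs lower, which like the count of complex II is near these shares, and medians between -0.41 and 0.10.

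A few members ran the other way. The 2 pairs called higher were 0.285% of the member pairs, below the 1.30% of pairs over all genes. They were 1 of 75 entries in bipolar cells, beside 2.73% of all genes, and 1 of 74 in cones, beside 2.34%. NDUFS1 XLOC_020652, one of 2 entries of the largest subunit of complex I, rose in bipolar cells, with 25.4 and 30.9 CPM at 6 weeks, 41.7 and 30.5 CPM at 12 weeks, and 40.9 and 47.0 CPM at 18 weeks (log2 fold change 0.65 ± 0.16, edgeR adjusted p = 0.0309). The more abundant NDUFS1 entry, XLOC_011761, had 120 and 130.4 CPM at 18 weeks and 132 and 127 CPM at 6 weeks there, and overlapped. NDUFS7, an iron-sulfur subunit of complex I, rose in cones, with 285 and 251 CPM at 6 weeks, 385 and 310.3 CPM at 12 weeks, and 447 and 357 CPM at 18 weeks (0.59 ± 0.16, edgeR adjusted p = 0.0444). The NDUFS7 call was lost without any one of the 6- and 18-week libraries, with thinned cells and with DESeq2. That of NDUFS1 was lost without either 6-week library, without the second 18-week library and with DESeq2. Over the 14 other settings the log2 fold changes were 0.41 to 0.74 for NDUFS7 and 0.51 to 0.80 for NDUFS1. In horizontal cells NDUFS7 had 151 and 137 CPM at 18 weeks and 148 and 158 CPM at 6 weeks. SDHA had a log2 fold change above 0 in all 10 types, between 0.21 and 0.65, and was called in none. How many of all genes did so was not counted, and the types came from the same 6 libraries. In cones SDHA had 127 and 115 CPM at 6 weeks, 163 and 142 CPM at 12 weeks, and 164 and 173 CPM at 18 weeks (0.47 ± 0.15, edgeR adjusted p = 0.0799). Its partner SDHD, by contrast, had 145 and 140.2 CPM at 18 weeks and 184 and 189 CPM at 6 weeks in cones.

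The steps between neighbouring ages held few calls. At 12 against 6 weeks 1 of 702 pairs was called, a share near the 0.167% of pairs over all genes in either direction. It was NDUFA4 (1 OF 2) in cones (-1.23 ± 0.18, edgeR adjusted p = 0.0021), where 0.168% of all cone genes were called lower. At 18 against 12 weeks 9 pairs were called, all lower, beside 0.345% of pairs over all genes. They were COX7B2, NDUFA11, NDUFA2 and NDUFA5 in bipolar cells, NDUFA11, NDUFA7, COX7B2 and ATP5L in horizontal cells, and NDUFA4(1OF2) XLOC_020965 in cones (-0.76 ± 0.15, edgeR adjusted p = 0.018). None of the 9 was called without either 18-week library, and 1 was called without the first 12-week library. In horizontal cells the median over entries was -0.31 for the step of 18 against 12 weeks and -0.07 for that of 12 against 6 weeks. In cones these medians were -0.32 and 0.00 in the same order. The comparisons share the 12-week or the 6-week libraries and are not independent. In the sum of all cells no entry was called by edgeR in either step, with 26 at an unadjusted p under 0.05 at 18 against 12 weeks (13.0% of all genes; DESeq2 called 1) and 1 at 12 against 6 weeks (5.67% of all genes; DESeq2 called none). Over all genes of this sum 0.0686% were called in the later step and 0% in the earlier one.

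The 2 middle-aged libraries did not stand together in every type. Set against the 6-week mean, the median over entries of the difference in log2(CPM + 1) was 0.07 and -0.34 in amacrine cells at 12 weeks, 0.00 and -0.40 in ganglion cells and 0.13 and -0.31 in rods. In amacrine and ganglion cells the second 12-week library was near the old libraries and the first near the young ones. The old libraries had -0.49 and -0.54 in ganglion cells. In rods the young libraries themselves stood apart, at -0.20 and 0.20. The first of them was about level with the first old library, as the old ones had -0.21 and -0.38. In horizontal cells the 12-week libraries lay close together, at -0.06 and -0.09, and the 18-week libraries at -0.26 and -0.44. The second 18-week library was below the first in 9 of the 10 types, with immune cells as the exception (-0.14 for the second and -0.16 for the first).

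**Figure D5:**
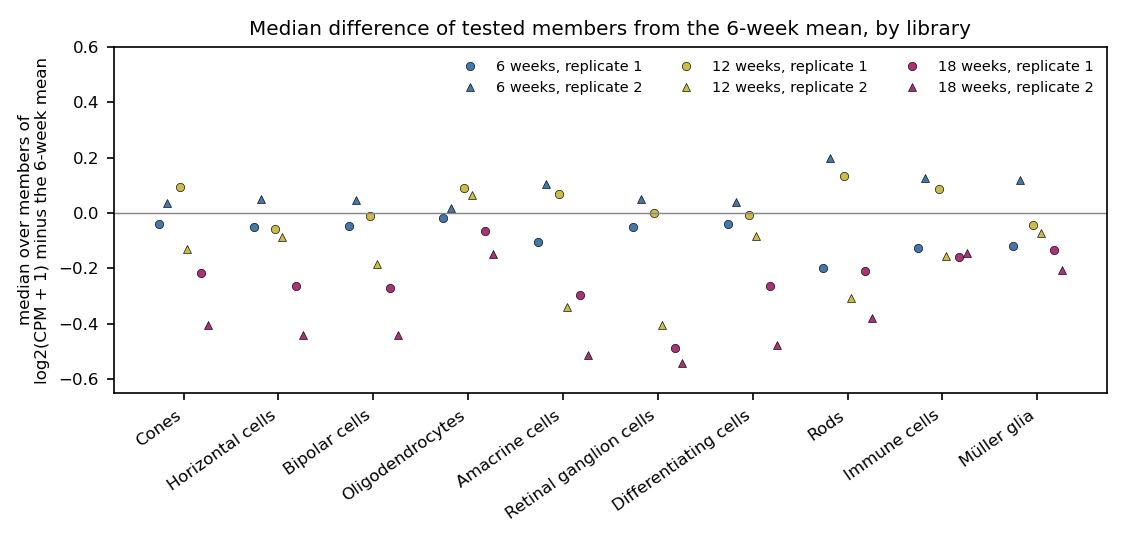
Median over the tested entries of log2(CPM + 1) minus the mean of the 6-week libraries (vertical axis), by cell type (horizontal axis), with 1 point per library, coloured by age. The 18-week points lie at -0.49 and -0.54 in ganglion cells and at -0.06 and -0.15 in oligodendrocytes.

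Whether a type changed unlike the other 9 was tested on differences within a library with limma. Of 610 pairs of an entry and a type 1 was called, beside 0.537% of such pairs over all genes. It was NDUFA4 (1 OF 2) XLOC_010795 in cones, where 0.659% of all genes were called. Its log2 change at 18 against 6 weeks was -1.26 in cones and -0.10 on average in the other 9 types, a difference of -1.16 ± 0.17 (limma adjusted p = 0.0214). The call was lost without either 18-week library (limma adjusted p = 0.0531 without the first and 0.18 without the second). No other entry was called, so that the many calls in bipolar and horizontal cells, against none in amacrine cells, were not shown to be a difference between these types. The median difference over the 61 entries tested in each type was lowest in ganglion cells (-0.20) and highest in oligodendrocytes (0.23), with medians over all genes of -0.01 and 0.02.

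Genes around the respiratory chain were counted in the same fits, in which 1.57% of pairs over all genes were lower and 1.30% higher. The 17 further entries of respiratory chain name had 44 of 162 pairs lower at 18 against 6 weeks (27.2%) and none higher. In bipolar and in horizontal cells 11 of 17 were lower in each, and in both types ndufb3, ndufa3, ndufc1, cox6c and atp5e had log2 fold changes between -1.01 and -0.76. Entries of the mitochondrial ribosome, which translates the subunits encoded in the mitochondrion, had 17 of 602 pairs lower (2.82%) and none higher. The share called lower was 1.57% over all genes and 2.70% among genes at 50 CPM or more. Of the 17 pairs, 12 were in bipolar cells, and several of the 17 stood below 50 CPM. The medians of these entries lay between -0.33 and 0.00. Electron carriers and helpers had 2 of 111 pairs lower, both in bipolar cells: CYCSB, a cytochrome c (-0.48), and COX17, a copper chaperone of complex IV (-0.44). Enzymes of the citric acid cycle and of pyruvate use had 1 of 158 pairs lower, DLAT in bipolar cells (-0.48), and 3 higher: OGDH(2OF2) (0.90) and IDH3G (0.53) in bipolar cells and SUCLG2 in cones (0.83). Mitochondrial carriers and membrane proteins had 1 of 118 pairs higher, CHCHD3 in bipolar cells (0.40). None of 80 pairs of the 9 regulators, which include PPARGC1A, NRF1 and TFAM, was called. The cytosolic ribosome had 36 of 868 pairs lower and 5 higher, and its medians ranged from -0.62 in amacrine cells to 0.18, beside -0.52 to -0.13 for the members.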

How the data were processed

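Neural retinas of killifish at 18, 12 and 6 weeks of age had been profiled with droplet single-cell RNA-seq (10x Genomics 3' chemistry), in 2 libraries per age. The authors deposited raw UMI counts per gene and cell. They had made them with Cell Ranger 7.0.1 on a custom transcriptome of the GRZ assembly, kept cells with more than 1000 transcripts and below an upper limit, and clustered and named the cells with Monocle3. Whether doublets had been removed is not given in the sources used here. A cell in the table held 1001 to 19991 UMIs, and all 37243 cells and the authors' 12 cell types were used. The deposited counts of all entries are unscaled. Columns that hold totals and summaries of cells were not tested. Libraries held pools of fish, so p-values measure the spread between pools.

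Members and gene lists were chosen with earlier results of these data known. Counts were summed per library and type for the 10 types with at least 10 cells in every library; pigment epithelium (1 to 13 cells per library) and red blood cells (0 to 10) were given no test. Sums were scaled with TMM, filtered with filterByExpr by age and tested with the quasi-likelihood test of edgeR 4.0.16 (R 4.3.3), with age as a factor of 3 levels over all 6 libraries. Adjustment (Benjamini-Hochberg) was over all genes of a fit, and adjusted p under 0.05 was called. The study regressed over single cells, which counts cells as replicates, and this was not followed. Types were compared in their change with limma 3.58.1 on log2 CPM (prior count 2) of a type minus the mean of the other 9. Levels are counts over the TMM-scaled total of a type.

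Entries named by rule were the members called in the sum of all cells and, in each type, the call furthest up and the call furthest down. Those called in most types and those called in the difference between types were also named. So were the 6 of at least 50 CPM with the highest ratio of the first to the second type. The COX4, COX6A, COX7A, COX7B, COX8, NDUFA4, ATP5G and SDH families and the 5 highest in level completed the list. UQCRQ, COX5B2, NDUFA2, NDUFB4, ATP5J and ATP5L were named after their values were seen. Alternatives were DESeq2 1.42.0, its size factors, no TMM, no filter, each library left out and the replicate number as a block. Others were only the 2 ages compared, cells thinned to 1000 UMIs, copies summed and bipolar cells without cluster 10. Copies were summed by name only where the name had an ending such as (1 OF 2). Entries that share the name NDUFS1, NDUFV2 or COX7A3 stayed apart, as did NDUFA4 XLOC_018357. Adding the 17 entries known by their second name was an alternative chosen after seeing the data. The steps were tested on simulated counts. Sequences and coordinates were not used here, and RefSeq (assembly NfurGRZ-RIMD1) gave names only.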

Additional observations from a re-analysis of the deposited data

Results flagged for a closer look

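The change of NDUFA4 (1 OF 2) XLOC_010795 at 18 against 6 weeks in cones differed from that in the other 9 types, by -1.16 on the log2 scale (limma on differences within a library). It was the 1 called pair of 610, a share below the 0.537% of such pairs called over all genes. In cones 0.659% of all genes were called. The call was lost without either 18-week library. With cells thinned to 1000 UMIs the difference was -0.35 (limma adjusted p = 0.808), in a table with fewer UMIs and 542 genes tested. The most UMIs of this entry in a single cone were 5 and 3 at 18 weeks and 18 and 27 at 6 weeks, in the order of the replicate numbers.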

How the results depend on the processing

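The direction of the age comparison held in every setting in which a call had a value, while the number of calls rested on single libraries, as 2 per age allow. In bipolar cells, horizontal cells and cones, fits without a 6- or 18-week library also called fewer genes of any kind. At 18 against 6 weeks in the 10 types (64 pairs), 103 pairs were called with no filter on low counts, 37 with cells thinned to 1000 UMIs, 108 of 864 with the entries of like second name added, and 6 to 95 with 1 library left out (6 without the second 18-week library, 16 without the second 6-week library, 31 without the first 18-week library, 41 without the first 6-week library). DESeq2 called 59. In the sum of all cells (1 entry), 6 were called without TMM, 2 with DESeq2 size factors, 2 with only the 2 ages compared, 3 with thinned cells, 2 with copies summed, 23 with DESeq2, 7 with the second-name entries added, and 0 to 3 with 1 library left out. Over all genes of that sum 688 were called, 600 without TMM, 656 with DESeq2 size factors and 712 with only the 2 ages compared. With thinned cells 365 were called, with copies summed 672 and with DESeq2 1259. Counts over all genes under these settings are not given for the neighbouring ages. At 18 against 12 weeks DESeq2 called 1 entry in that sum, where edgeR called 0. Within types (9 pairs), 3 were called without TMM, 38 with no filter, 27 with DESeq2 and 0 to 19 with 1 library left out (0 without either 18-week library, 1 without the first 12-week library and 19 without the second). At 12 against 6 weeks (1 pair), 2 were called with no filter, 0 with thinned cells, 0 with copies summed and 1 to 2 with 1 library left out. For the difference between types (1 pair), 2 were called with a prior count of 0.5 and 0 to 3 with 1 library left out. The ratio of UMI shares at 18 over 6 weeks was 0.892 in oligodendrocytes with thinned cells (0.976 otherwise) and 0.701 in ganglion cells without ribosomal protein, haemoglobin and rRNA entries (0.726 otherwise). The cause of these shifts was not tested. Of 263 values of the 19 named results under the alternatives, 196 kept the call, 67 lost it with the same direction and 0 turned. Leaving out the second 18-week library lost 16 of them. Without TMM the median of all genes at 18 against 6 weeks was 0.11 in amacrine cells (0.01 with TMM). Without TMM, with DESeq2 size factors and with DESeq2, the median of the members stayed below 0 in 10 of 10 types, complex V was wholly below 0 in 8 and SDHA above 0 in 10.

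The replicate numbers did not pair the samples alike across the ages. Libraries of equal number deviated together at 12 and 18 weeks, but in the opposite way at 6 weeks. Deviations of libraries with the same number from their age means correlated at -0.44 between 6 and 12 weeks, -0.49 between 6 and 18 weeks and 0.61 between 12 and 18 weeks over 3752 genes. With the replicate number as a block, 58 pairs were called at 18 against 6 weeks, 0 entries in the sum of all cells, 7 pairs at 18 against 12 weeks and 3 pairs for the difference between types.

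Precision was limited by 2 libraries per age, by pooled fish, and by the depth of the smaller types: oligodendrocytes had 182962 to 453335 UMIs per library and immune cells 326996 to 729375. A type with no call was therefore not shown to be without a change.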

Other observations

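Members in the 2 types that were too small to test had uneven shares. The pigment epithelium cells that remained spent 2.09% and 0.761% of their UMIs on the 77 entries at 18 weeks and 0.936% and 0.874% at 6 weeks. Red blood cells spent 0.456% and 0.394% at 18 weeks and 0.247% and 0.698% at 6 weeks.

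The entry OLA.8940 XLOC_020447, which RefSeq names cox8b and which lay outside the rule, was among the further entries with the largest falls. In horizontal cells it averaged 23.1 CPM and its log2 fold change at 18 against 6 weeks was -2.18 ± 0.36 (SE, edgeR adjusted p = 0.00377). It was chosen after its values were seen. SDHB, the iron-sulfur subunit of complex II, is named only in the second column (XLOC_016175), and over all cells its log2 fold change was 0.04 ± 0.14 (edgeR adjusted p = 0.892). In that sum the largest falls among the further entries were those of atp5j2, or AL928657.1 (-0.90 ± 0.16, edgeR adjusted p = 0.0345), and ndufb3, or XLOC_014905 (-0.90 ± 0.14, edgeR adjusted p = 0.0295).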
